A study of Rattus norvegicus with 18 samples.

Results

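The mammalian circadian clock genes Per1, Per2, Per3, Cry1, Cry2, Arntl (also named Bmal1), Clock, Nr1d1, Nr1d2 and Dbp were followed in cultured rat aortic rings. All probe sets annotated to a single member of this list were taken, kept by an intensity filter or not. This gave 17 probe sets for 10 genes, 14 among the 15866 probe sets of array A (RAE230A) and 3 among the 15276 of array B (RAE230B), control probe sets left out. The members were chosen by gene name, with no threshold on a measured value, but the list was drawn up with the signals and group differences of these same RNAs already known. Differences between groups are therefore given as a description of the 9 RNAs.

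The clock is a feedback loop of transcription found in most cells, the vessel wall included. Arntl and Clock form a dimer that binds E-boxes and activates the Per and Cry genes, whose proteins return to the nucleus and repress the dimer. A second loop runs through the nuclear receptors Nr1d1 and Nr1d2, which repress Arntl at ROR response elements. Dbp carries the rhythm to output genes through D-boxes. In tissue placed in culture, serum, growth factors and medium changes can reset the loop, and without such cues cells drift out of phase with each other.

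The rings came from the thoracic aorta of male Fisher 344 rats 5 weeks old, were cut to 2 mm and were kept in serum-free EBM medium for 14 days. On day 13 a VEGF group received recombinant human VEGF at 10 ng/ml and an Ang1 group received recombinant human angiopoietin-1 at 100 ng/ml together with a poly-His antibody at 5 µg/ml. The untreated group stayed in the serum-free medium, and no group among these samples received the antibody alone. RNA was taken after 20 h by the labels and after 18 h by the design text, from 4 to 6 rings combined, and each of the 9 RNAs, 3 per group, was run on both array types.

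By the design text, 3 animals each gave 1 RNA to every group, but no label ties a replicate number to an animal. Untreated replicate 1 carries a label for a different amplification protocol from the others. No source used here gives the time of day of treatment or harvest, and all RNAs of a group represent a single time. A rhythm in time, its phase and its amplitude were therefore not measured.

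The deposited intensities had a trimmed mean of 250 on 17 of the 18 arrays. Ang1 replicate 3 on array B stood at 94.8, so intensities were quantile normalised within each array type and expressed as log2(signal + 16). Levels below are on this scale, and a difference of 1 is a 2-fold change that is understated for dim probe sets. A probe set was kept for testing where its mean over 9 arrays reached the 40th percentile, which was 6.52 on array A and 6.71 on array B. This left 9520 and 9166 probe sets.

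Untreated replicate 2 and Ang1 replicate 2 stood apart, with median correlations to the other arrays of 0.79 and 0.69 on array A, where the remaining RNAs had 0.87 to 0.94. The Gapdh 3' signal on array A was 64.4 and 446.9 in these RNAs and 2218 to 3247 in the remaining ones. For many clock gene differences the value over the other 7 RNAs is also given. Differences of marker genes and of other genes around the loop are given over 9 RNAs only. How far those move without the 2 RNAs was not tested. The actin 3'/5' ratio, a measure of RNA or label quality, was 1.86 to 7.70 in untreated, 6.18 to 8.29 in Ang1 and 8.79 to 12.4 in VEGF arrays of type A, so it was highest in the group with the highest Per1. Its part in the results was not tested. Apart from desmin, all measured smooth muscle, endothelial, fibroblast and macrophage marker genes were above the intensity filter on array A, whereas all 3 hepatocyte and neuron genes on that array were below it. Exceptions among genes of other tissues were the muscle gene Ckm, kept on array A at a mean of 6.75, and the neuron gene Syt1, kept on array B at 8.10. In such tissue RNA, fewer cells of a type and less RNA per cell cannot be told apart.

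The RefSeq promoter windows of the clock genes, 250 bases before to 50 after a start (GRCr8), show 3 elements of the loop. They were matched for 9 of the 10 genes, in 11 windows. A search of both strands used the E-box CACGTG, the D-box TTACGTAA or TTATGTAA, the ROR element ANTAGGTCA or ANTGGGTCA and the cAMP response element TGACGTCA. The variant E-box CACGTT was added after the windows had been read. The stretches of Per2 (chr9:99497010-99497225, minus strand), Arntl (chr1:176766270-176766327, plus strand) and Nr1d1 (chr10:84229600-84229685, minus strand) are printed since each holds an element of a different arm. Capitals mark the D-box and the variant E-box in Per2, the ROR element in Arntl and the E-box in Nr1d1.
Per2: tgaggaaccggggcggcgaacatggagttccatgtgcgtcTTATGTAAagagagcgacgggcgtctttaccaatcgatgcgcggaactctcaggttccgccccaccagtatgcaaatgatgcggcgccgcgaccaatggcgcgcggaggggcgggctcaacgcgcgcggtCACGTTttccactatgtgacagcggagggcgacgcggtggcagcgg
Arntl: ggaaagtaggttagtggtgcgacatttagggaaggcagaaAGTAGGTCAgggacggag
Nr1d1: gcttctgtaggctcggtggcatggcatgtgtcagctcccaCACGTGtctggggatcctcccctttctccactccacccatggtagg
The Nr1d1 window lies at an internal start of the gene, which spans chr10:84224599-84231812. The E-box was found in 1 of the 11 clock gene windows and in 6.42% of 33469 promoter windows, the D-box in 1 and 1.01%, and the ROR element in 1 and 1.46%. The cAMP response element was found in 0 of 11 windows and in 1.83% of all windows. The variant E-box was found in 3 of 11, in Per2, Cry2 and the other Nr1d1 window, and in 4.83% of all. A match is a description of letters, not a site in use. The windows of Per1, Per3, Clock, Nr1d2 and Dbp held none of these letters, which says only that they are not in these stretches. The Per1 window (chr10:54304126-54304425) lies inside its gene (chr10:54299002-54313804, plus strand). The Per3 window (chr5:166777751-166778050) lies inside its gene too (chr5:166740914-166778243, minus strand). The bases just before the outer start of Per1 and Per3 were therefore not searched. A Clock window at chr14:32300295-32300594 is also internal, while the other lies at the gene start (chr14:32262747).

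Of the 17 probe sets, 12 passed the filter, 10 on array A and 2 on array B. The other 5 were further probe sets for Per3 (mean 4.56), Clock (5.83), Cry2 (5.14) and Nr1d2 (4.61) on array A and for Per2 (6.06) on array B. Every gene kept at least 1 probe set. Per1 and Arntl lay just above the threshold, both at 6.64. The plot of all 12 probe sets by RNA shows their values side by side.

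**Figure D1:**
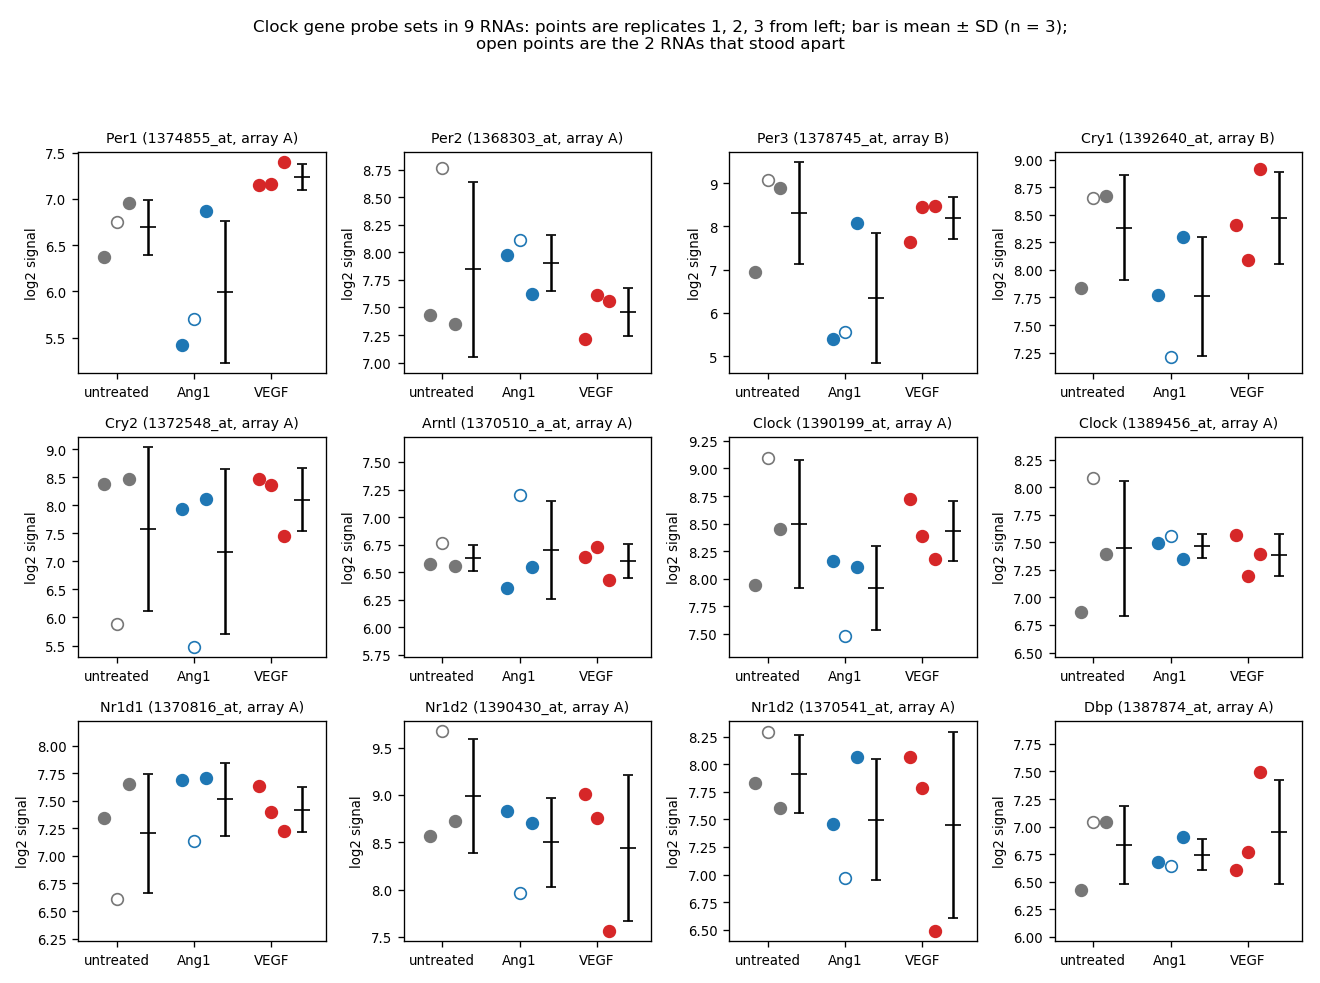
Normalised log2(signal + 16) of the 12 kept clock gene probe sets in each of 9 RNAs, by group, with bars for the group mean ± SD (n = 3) beside the points; open symbols mark untreated replicate 2 and Ang1 replicate 2. Per1 in VEGF lies at 7.15 to 7.39, above all 6 other RNAs, while Arntl differs little between groups.

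Arntl, the E-box activator that dimerises with Clock, had the smallest spread of the kept probe sets, with a standard deviation of 0.25 over 9 RNAs. Its levels were 6.57, 6.77 and 6.55 in untreated, 6.36, 7.20 and 6.55 in Ang1 and 6.64, 6.73 and 6.43 in VEGF RNAs. The 3 groups overlapped, and the highest value was that of Ang1 replicate 2, 1 of the RNAs that stood apart. The VEGF minus untreated difference was -0.03 ± 0.29 (SE, n = 3 per group), with a 95% interval of -0.68 to 0.62, and 0.04 without the RNAs that stood apart. For Ang1 minus untreated it was 0.07 with those RNAs and -0.11 without them. The level also lay near the filter threshold.

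Clock, the partner of Arntl, was read by 2 kept probe sets. Probe set 1390199_at measured 7.94, 9.10 and 8.45 in untreated, 8.16, 7.48 and 8.11 in Ang1 and 8.72, 8.39 and 8.18 in VEGF RNAs. All 3 VEGF values lay above all 3 Ang1 values, at the nearest with 8.18 against 8.16, and untreated values overlapped both. VEGF minus Ang1 was 0.51 ± 0.36 with the RNAs that stood apart and 0.30 without them. Ang1 minus untreated was -0.58 ± 0.36 with them and -0.06 without. For VEGF minus untreated it was -0.07 with them and 0.24 without. Probe set 1389456_at gave group means of 7.45 in untreated, 7.47 in Ang1 and 7.38 in VEGF, with all groups overlapping. Its VEGF minus untreated difference was -0.06 over 9 RNAs and 0.27 over 7. Its Ang1 minus untreated difference was 0.02 over 9 RNAs and 0.31 over 7. The correlation between the 2 Clock probe sets was 0.549 over 9 RNAs. The remaining Clock probe set, which was not kept, ran from 5.47 to 6.30.

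Per1, a repressor subunit that is also a fast-responding gene of the clock, had the group pattern VEGF, then untreated, then Ang1. The deposited signals were 59.1, 78.2 and 96.6 in untreated, 27.9, 61.2 and 91.6 in Ang1 and 118, 128 and 162 in VEGF RNAs. On the normalised log2 scale the levels were 6.37, 6.75 and 6.95 in untreated, 5.42, 5.70 and 6.87 in Ang1 and 7.15, 7.16 and 7.39 in VEGF. The 3 VEGF RNAs were above all 6 others, and the untreated and Ang1 RNAs overlapped. Ang1 replicate 3, with 6.87, was within the untreated range.

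VEGF minus Ang1 for Per1 was 1.24 ± 0.38 (SE, n = 3 per group), a 2.36-fold difference, with a 95% interval of 0.40 to 2.08. The adjusted p from limma over all array A probe sets was 0.972, so the difference did not pass. Without the RNAs that stood apart it was 1.11 ± 0.39, and over 18 alternative settings it ran from 0.80, with a pseudocount of 64, to 1.67, without Ang1 replicate 3, always with VEGF higher. The limma adjusted p ran from 0.0556, with array weights, to 1.00 over these settings. VEGF minus untreated was 0.54 ± 0.38 and Ang1 minus untreated was -0.70 ± 0.38, with limma adjusted p of 1.00 and 0.953. These comparisons share samples and are not independent of each other.

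Per3, the remaining Per paralog, had the widest spread of the kept probe sets, with a standard deviation of 1.37 over 9 RNAs. Probe set 1378745_at on array B measured 6.94, 9.08 and 8.88 in untreated, 5.40, 5.56 and 8.08 in Ang1 and 7.64, 8.46 and 8.48 in VEGF RNAs. Ang1 replicates 1 and 2 were the lowest RNAs, while Ang1 replicate 3 lay inside both other groups, so no pair of groups was separate on the normalised scale. At each replicate number, the Ang1 value was below the untreated and the VEGF value. On the deposited values, where that array is low, all Ang1 values were below all untreated and all VEGF values. Untreated replicate 1 was also low, below every VEGF value. The second Per3 probe set, on array A, ran from 4.20 to 5.29 and was not kept.

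Ang1 minus untreated for Per3 was -1.95 ± 0.74, with a limma adjusted p of 0.466. It was -1.17 ± 0.84 without the RNAs that stood apart, with a limma adjusted p of 0.860. VEGF minus Ang1 was 1.85 ± 0.74, a 3.59-fold difference, with a limma adjusted p of 0.561, and 1.45 ± 0.77 without those RNAs. For VEGF minus untreated it was -0.11 ± 0.74, and 0.28 without them. On the values as deposited, where Ang1 replicate 3 on array B has a trimmed mean of 94.8 instead of 250, Ang1 minus untreated was -2.24 with a limma adjusted p of 0.0334. Over the 19 settings tried, this difference ran from -2.87 to -1.17 and its limma adjusted p from 0.0334 to 0.860. This was the only clock gene call under any of these settings.

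Per2, a core repressor of the loop, was read differently by its 2 probe sets. Probe set 1368303_at on array A measured 7.43, 8.76 and 7.35 in untreated, 7.98, 8.11 and 7.62 in Ang1 and 7.21, 7.62 and 7.56 in VEGF RNAs. The VEGF values lay below the Ang1 values, with the highest VEGF and the lowest Ang1 RNA both at 7.62, and they overlapped on the deposited values. Untreated replicate 2 was the highest RNA. VEGF minus untreated was -0.38 ± 0.39, and 0.08 without the RNAs that stood apart. For Ang1 minus untreated it was 0.06 with them and 0.43 without. The array B probe set 1378560_at, which was not kept, measured 5.78, 6.21 and 6.14 in untreated, 5.98, 5.81 and 5.78 in Ang1 and 6.20, 6.03 and 6.65 in VEGF RNAs. All its VEGF values were above all its Ang1 values, but the deposited values overlapped. It had VEGF minus Ang1 at 0.44 ± 0.34 against -0.44 ± 0.39 for the array A probe set. The 2 probe sets thus had opposite signs in this comparison.

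Cry1, which joins the Per proteins in repressing Arntl and Clock, was measured by 1 probe set on array B. Its levels were 7.83, 8.65 and 8.67 in untreated, 7.77, 7.21 and 8.29 in Ang1 and 8.41, 8.09 and 8.92 in VEGF RNAs. The Ang1 group held the 2 lowest RNAs, and its remaining RNA lay within both other groups. On the deposited values, where the array of Ang1 replicate 3 is low in scale, all VEGF values were above all Ang1 values. The normalised values overlapped, with Ang1 replicate 3 at 8.29 above VEGF replicate 2 at 8.09. VEGF minus Ang1 was 0.71 ± 0.39, a 1.64-fold difference with a limma adjusted p of 0.561, and 0.45 without the RNAs that stood apart. Ang1 minus untreated was -0.62 ± 0.39, and -0.22 without them.

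Cry2, the paralog of Cry1, had 5.88 in untreated replicate 2 and 5.47 in Ang1 replicate 2, whereas its other 7 RNAs lay between 7.45 and 8.48. The low values were thus those of the RNAs that stood apart. Its VEGF minus untreated difference was 0.52 ± 0.80 with these RNAs and -0.34 without them. VEGF minus Ang1 was 0.93 ± 0.80 with them and 0.08 without. Ang1 minus untreated was -0.41 ± 0.80 with them and -0.41 without both. It was -1.25 without untreated replicate 2 alone and 0.45 without Ang1 replicate 2 alone. The other Cry2 probe set ran from 4.80 to 5.70 and was not kept. The sign or size of each Cry2 difference therefore rested on which of the RNAs that stood apart were included.

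Nr1d1, the receptor that represses Arntl, measured 7.35, 6.61 and 7.66 in untreated, 7.69, 7.13 and 7.71 in Ang1 and 7.64, 7.39 and 7.23 in VEGF RNAs. The normalised groups overlapped and untreated replicate 2 was the lowest RNA. On the deposited signals, Ang1 (183 to 192) lay above all untreated (70.0 to 179) and all VEGF (143 to 178) values. VEGF minus untreated was 0.22 ± 0.33 and -0.09 without the RNAs that stood apart. Ang1 minus untreated was 0.31 ± 0.33, and 0.21 without them. The promoter of Arntl printed above holds the ROR element that Nr1d1 is known to bind. Across the 9 RNAs the correlation of Arntl and Nr1d1 was -0.49, and -0.0912 over the 7 RNAs left without the RNAs that stood apart.

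Nr1d2, the paralog of Nr1d1, was read by 2 kept probe sets with a correlation of 0.91 over 9 RNAs and 0.892 over 7. Without VEGF replicate 3 and untreated replicate 2, the RNAs farthest from the 1390430_at median, it was 0.781. The rank correlation was 0.7 over 9 RNAs and 0.357 over the 7 without the RNAs that stood apart. Probe set 1390430_at measured 8.56, 9.68 and 8.73 in untreated, 8.83, 7.96 and 8.70 in Ang1 and 9.01, 8.75 and 7.56 in VEGF RNAs. VEGF replicate 3 was the lowest RNA and untreated replicate 2 the highest, and the groups overlapped. VEGF minus untreated was -0.55 ± 0.45 for this probe set and -0.46 ± 0.44 for 1370541_at, in which VEGF replicate 3 was again the lowest, at 6.49. These were -0.21 and -0.28 without the RNAs that stood apart. With array weights, 1390430_at gave -0.00 and 1370541_at gave -0.01.

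The third Nr1d2 probe set, 1370540_at, was dim and not kept. It had 4.32, 4.15 and 4.29 in untreated, 5.04, 5.02 and 5.03 in Ang1 and 4.49, 4.88 and 4.28 in VEGF RNAs. All 3 Ang1 RNAs were above all 6 others. The deposited signals behind these levels were 3.0, 1.5 and 2.5 in untreated and 17.9, 30.7 and 14.4 in Ang1. In the fit without a filter, Ang1 minus untreated was 0.78 ± 0.17, with a limma adjusted p of 0.921. Over 18 alternatives it ran from 0.27, with a pseudocount of 64, to 2.20, with a pseudocount of 1, so its size depends on the added constant. The kept Nr1d2 probe sets gave -0.49 and -0.41 for the same comparison over 9 RNAs. Without the RNAs that stood apart they gave 0.13 and 0.04, beside 0.72 for the dim probe set.

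Dbp, the D-box activator at the output of the loop, measured 6.43, 7.04 and 7.04 in untreated, 6.68, 6.65 and 6.91 in Ang1 and 6.60, 6.77 and 7.49 in VEGF RNAs. The groups overlapped, with VEGF replicate 3 the highest RNA and untreated replicate 1 the lowest. VEGF minus untreated was 0.12 ± 0.32 with a 95% interval of -0.59 to 0.83. It was 0.23 without the RNAs that stood apart. Ang1 minus untreated was -0.09 ± 0.32, and 0.06 without them. Its sign was the same under 13 of 18 alternatives, and differed on the values as deposited.

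**Figure D2:**
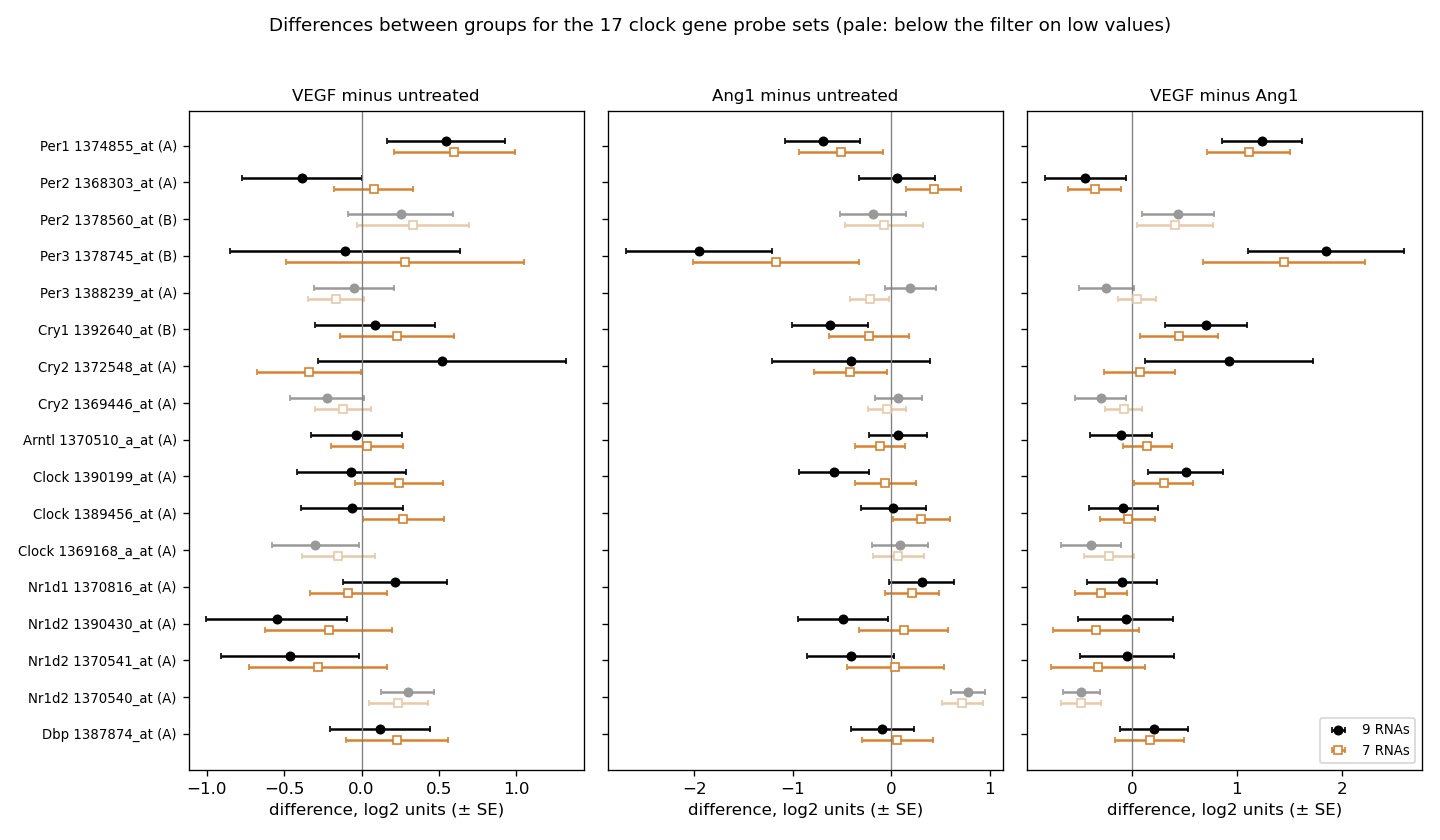
Differences in log2(signal + 16) with SE bars for all 17 clock gene probe sets in the 3 comparisons, over 9 RNAs (black circles) and over 7 without the RNAs that stood apart (orange squares); pale symbols are the 5 probe sets below the filter. In VEGF minus Ang1, Per1 (1.24) and Per3 (1.85) lie farthest right, and Cry2 moves from 0.93 to 0.08 without those RNAs.

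Over all probe sets, limma called none in any comparison at an adjusted p of 0.05, a background of 0% on both arrays, and no clock gene was called. At an unadjusted p of 0.05, VEGF against untreated gave 157 probe sets on array A (1.65%) and 66 on array B (0.72%), with 0 of 10 and 0 of 2 clock gene probe sets. Ang1 against untreated gave 302 (3.17%) and 960 (10.5%), with 0 of 10 and 1 of 2, Per3. VEGF against Ang1 gave 189 (1.99%) and 777 (8.48%), with 1 of 10, Per1, and 1 of 2, Per3. Since the list was drawn up with these contrasts known, nothing is read from these counts.

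Groups that did not overlap were counted in the same way. VEGF against untreated had 1 of the 10 kept clock gene probe sets of array A (Per1) apart, against 8.45% of all tested. Ang1 against untreated had 0 of 10 against 9.11%. VEGF against Ang1 had 3 of 10 (Per1 and Clock 1390199_at above, Per2 below) against 8.07%. On array B there were 0 of 2 in each comparison, against 6.44%, 17.5% and 15.5%. With 3 RNAs against 3, an exact two-sided permutation test of a single value cannot give a p below 0.1.

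The clock genes had no common direction on array A. In each comparison 4 of the 10 kept probe sets were higher and 6 lower. Their median differences were -0.05 for VEGF minus untreated, -0.25 for Ang1 minus untreated and -0.05 for VEGF minus Ang1, beside -0.01, -0.03 and 0.02 over all tested probe sets. Leaving out the RNAs that stood apart changed the sign of 6, 4 and 1 of the 10 in these comparisons. The median residual standard deviation of the 10 was 0.456, and 0.443 over all probe sets of array A. On array B the median for Per3 and Cry1 was 0.810 against 0.507 over all, and 0.847 against 0.360 without the RNAs that stood apart.

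How the members moved relative to each other across RNAs was also described. Per1 and Per3, which were measured on different array types from the same RNAs, had a correlation of 0.883 over 9 RNAs and 0.916 over the 7 without those that stood apart. Without Ang1 replicates 1 and 2, the RNAs farthest from the Per1 median, it was 0.429, so it rested largely on these RNAs. Per1 with Cry1 gave 0.807 and Per3 with Cry1 gave 0.86, and these were 0.61 and 0.717 without the same Ang1 RNAs. Dbp, like the Per and Cry genes a target of Arntl and Clock, had 0.757 with Cry1, 0.607 with Per3 and 0.534 with Per1. It had 0.129 with Per2 (1368303_at) and -0.159 with Cry2 (-0.703 over 7 RNAs), and this Per2 probe set had -0.406 with Per1. The other Per2 probe set, which was not kept and differed in sign in VEGF minus Ang1, was left out of the correlations. The kept probe sets of the targets of Arntl and Clock thus did not all move together, and for Per2 this holds for 1368303_at only. The points share RNA, ring cultures and label quality, and no p is given.

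**Figure D3:**
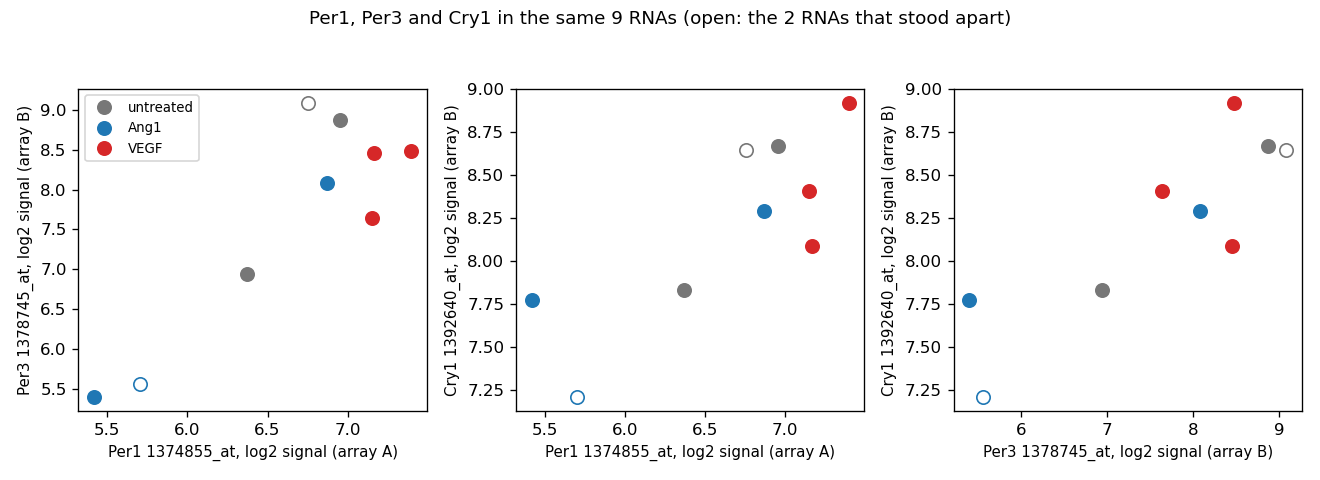
Per3 against Per1, Cry1 against Per1 and Cry1 against Per3 as normalised log2(signal + 16), with Per1 from array A and the others from array B, 1 point per RNA, coloured by group, with the RNAs that stood apart as open symbols. Ang1 replicates 1 and 2 form the low end, and r over 9 RNAs is 0.883, 0.807 and 0.86 from left to right.

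Other pairs, within and between arms of the loop, gave values of both signs. Arntl with Dbp gave -0.282 over 9 RNAs and -0.349 over 7. The strongest negative value involving Per2 was -0.827 with Cry2, which was -0.518 without the RNAs that stood apart. Cry2 with Nr1d1 gave 0.786 and 0.394. Nr1d2 (1370541_at) with Dbp gave -0.428 over 9 RNAs and -0.783 over 7. Over the 45 pairs on array A the median correlation was 0.0616, 25 pairs were above 0, and 18 changed sign when the RNAs that stood apart were left out.

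**Figure D4:**
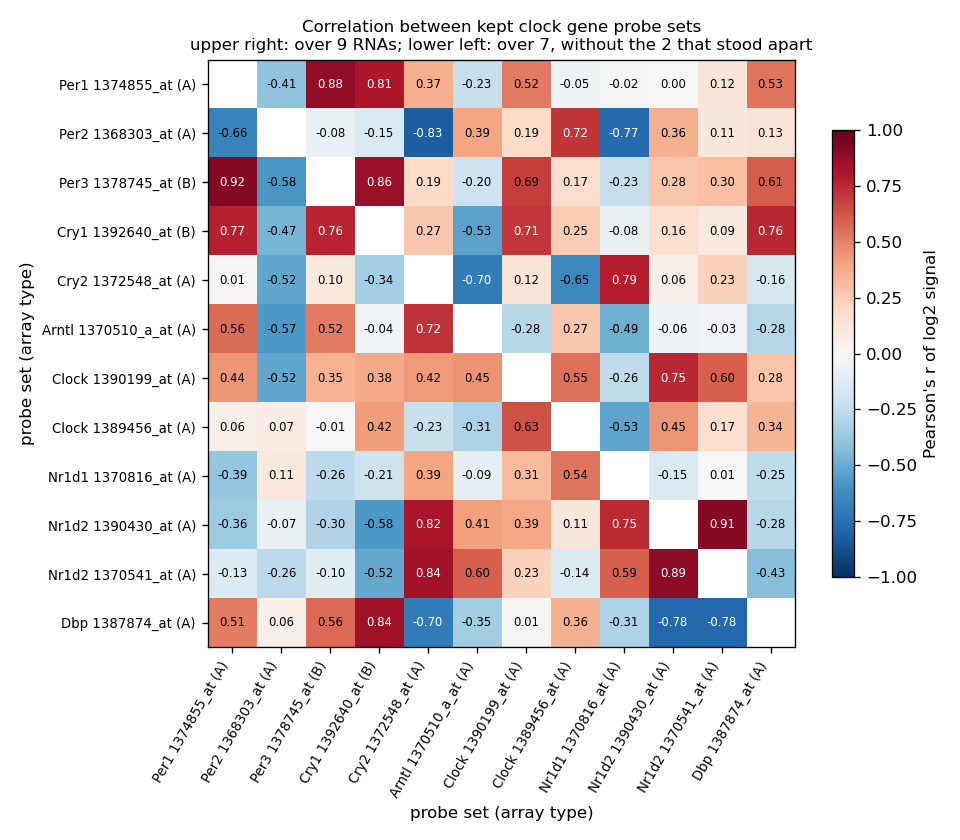
Pearson correlations between the 12 kept clock gene probe sets over 9 RNAs (upper right) and over the 7 left without untreated replicate 2 and Ang1 replicate 2 (lower left), on a colour scale from -1 to 1. Per1, Per3 and Cry1 have 0.807 to 0.883 with each other over 9 RNAs, and the 2 Nr1d2 probe sets reach 0.91. Per2, placed between Per1 and Per3 and read by 1368303_at alone, has -0.406 with Per1, -0.0768 with Per3 and -0.155 with Cry1. The Per2 probe set that was not kept is not shown.

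For the 3 members with the widest spread, the genes with the most similar pattern on the same array type were found by Pearson correlation over 9 RNAs. For Per3 they were Mtrfr at 0.96 (0.93 over 7 RNAs) and Lmo4 at 0.948 (0.953). For Cry2 they were Slco3a1 at 0.993 (0.921) and Arf5 at 0.989 (0.863). For Per1 they were Marf1 at 0.928 (0.916) and Ephx2 at 0.917 (0.908). They are given as a description, and the arrays share their RNAs.

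Genes around the loop were counted from 3 lists. Of clock regulators outside the 10, such as the Arntl paralogs, kinases and ubiquitin ligases, 10 of 17 were on array A and 7 genes (11 probe sets) were kept. Of these 11 probe sets, 0 were called by limma in any comparison, and 9, 7 and 7 were higher in VEGF than in untreated, in Ang1 than in untreated and in VEGF than in Ang1 RNAs. Their median differences were 0.12, 0.17 and 0.13, beside -0.01, -0.03 and 0.02 over all probe sets tested on array A. Fbxw11, a ubiquitin ligase subunit that acts on Per proteins, had all VEGF values above all untreated values, with a difference of 0.63 ± 0.32. Npas2, a paralog of Clock on array B, had all Ang1 values above all untreated values, at 1.11 ± 0.56. All its VEGF values were above all untreated values too, at 0.28 ± 0.56. Neither passed.

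Of D-box and output genes, 12 of 14 were on array A and 10 genes (11 probe sets) were kept, with 0 called in any comparison. In Ang1 against untreated 10 of the 11 probe sets were lower, and in VEGF against Ang1 8 of the 11 were higher. The list's medians were -0.20 and 0.27 in these comparisons, and 0.07 in VEGF against untreated. On array B 2 of the 4 kept probe sets of this list were higher and 2 lower in Ang1 against untreated, and 4 of 4 were higher in VEGF against Ang1. Nfil3, which competes with Dbp at D-boxes, was 1.29 ± 0.43 higher in VEGF than in Ang1, with all VEGF values above all Ang1 and all untreated values. Usp2, a deubiquitinase under clock control, was -1.06 ± 0.44 in VEGF minus Ang1, with all VEGF values below. Tef, a D-box activator like Dbp, gave -1.09 ± 0.33 for Ang1 minus untreated with 1385374_at on array B, with all Ang1 values below. The other Tef probe set gave -0.17 ± 0.41. The limma adjusted p was 0.972 for Nfil3 and 0.466 for the first Tef probe set.

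Of genes that feed resetting signals to the clock, all 12 were on array A and 11 (12 probe sets) were kept, again with 0 called. In VEGF against untreated and in VEGF against Ang1, 6 probe sets were higher and 6 lower, with medians of 0.03 and 0.00. In Ang1 against untreated 7 were higher and 5 lower, with a median of 0.17. On array B the 3 lists had 4, 4 and 3 kept probe sets, again with 0 called in any comparison. Hsf1, the heat shock factor, was 0.97 ± 0.39 higher in VEGF than in untreated RNAs, with overlapping values. Egr1, an immediate early gene, was 0.54 ± 0.28 higher, with all VEGF values above all untreated values. Neither passed.

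Markers of cell types were set beside Per1 on array A. Endothelial markers, 6 of 8 on the array, had mean levels of 7.35 to 8.03 in untreated, 6.68 to 8.11 in Ang1 and 7.82 to 8.33 in VEGF RNAs. In VEGF against Ang1, 5 of these 6 probe sets were higher, with a median of 0.61. The low end in Ang1 was replicate 2, an RNA that stood apart, while Ang1 replicates 1 and 3 were at 7.95 and 8.11. Proliferation markers, 5 of 6 on the array, were at 7.75 to 7.96, 7.28 to 8.11 and 7.76 to 7.98, and 6 of 6 probe sets were higher in VEGF than in Ang1. The high end in Ang1 was again replicate 2, while Ang1 replicates 1 and 3 were at 7.28 and 7.43, below every untreated and VEGF RNA. Fibroblast markers, 7 of 7, stood at 11.4 to 11.5, 11.2 to 11.7 and 11.5 to 11.8. Smooth muscle markers, 8 of 8, ranged from 7.32 to 8.87 in untreated, 7.65 to 8.54 in Ang1 and 8.01 to 8.36 in VEGF RNAs. Macrophage markers, 6 of 7 on the array, were at 8.05 to 9.17, 8.69 to 8.99 and 8.80 to 9.24 in the same order. Adipocyte markers, 3 of 5, were at 6.75 to 7.47, 6.59 to 7.19 and 6.99 to 7.12. Skeletal and cardiac muscle genes, 5 of 5, were at 5.65 to 6.09, 5.71 to 6.05 and 5.49 to 5.57, and hepatocyte and neuron genes, 3 of 4, at 4.80 to 5.26, 5.14 to 5.70 and 5.27 to 5.56. On array B, where Per3 and Cry1 were measured, 1 probe set each of the proliferation, macrophage, endothelial and smooth muscle lists was kept. Their Ang1 minus untreated differences follow. The cell cycle gene Ccna2 gave -1.07 ± 0.38 with all Ang1 values below, and the macrophage gene Cd163 gave 1.15 ± 0.37 with all Ang1 values above. The endothelial gene Tek, the receptor of angiopoietin-1, gave -0.74 ± 0.35 with all Ang1 values below, and the muscle gene Des gave 0.74 ± 0.41 with all above. Each had a limma adjusted p of 0.466 or, for Des, 0.480, so none passed. In this comparison 17.5% of all probe sets tested on array B did not overlap. On array A the smooth muscle list had 1 probe set higher and 6 lower in Ang1 than in untreated, unlike Des. The endothelial list had 2 higher and 4 lower there, the macrophage list 6 and 1, and the proliferation list 0 and 6. The part of cell composition in the Per1, Per3 and Cry1 differences was not tested.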

How the data were processed

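RNA from 9 pools of aortic rings was hybridised to both rat expression array types. The submitters' processing notes name MAS5, with no version in the sources used here; the deposited values are linear probe set intensities. Their common trimmed mean was found from the values, and no label states how it was set. Here control probe sets were removed, 16 was added, log2 was taken and values were quantile normalised per array type. Probe sets with a mean below the 40th percentile were left out, and limma 3.58.1 (R 4.3.3) fitted the 3 groups with trended eBayes and Benjamini-Hochberg adjustment over all kept probe sets. On array A 12783 probe sets had 1 gene symbol, 312 several and 2771 none; on array B 7564, 100 and 7612. All clock gene probe sets are named. From each related list up to 4 genes with the smallest unadjusted p could be named. The members and lists were chosen with earlier results of these data known. The alternatives tried were the values as deposited, trimmed mean scaling, pseudocounts of 1 and 64, no filter, a filter at the 60th percentile, no variance trend, array weights, the replicate number as a block and leaving out RNAs. The fit was also run on simulated data with noise drawn separately for each value. These held no RNAs that stood apart, so they cannot show how the fit behaves with such RNAs. P-values measure only the spread between these RNAs, which may be partly technical. The number of arrays limits the precision.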

Additional observations from a re-analysis of the deposited data

How the results depend on the processing

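No probe set passed at an adjusted p of 0.05 in VEGF against untreated under any of 19 alternatives on either array (limma; 86 to 801 and 17 to 350 at an unadjusted p of 0.05). In the other comparisons the count of 0 moved with array weights to 6 for Ang1 against untreated and 24 for VEGF against Ang1 (array A) and to 2 and 8 (array B). On the values as deposited it moved to 117 and 25 on array B, where Ang1 replicate 3 keeps its low scale; the cause of the changes with array weights was not tested. Fitting the replicate number as a block called 0 in all 6 fits, with limma giving 294, 415 and 408 probe sets (array A) and 98, 979 and 887 (array B) at an unadjusted p of 0.05. With group means removed, same-numbered RNAs of different groups correlated at -0.146 to 0.489 (array A) and -0.212 to 0.289 (array B). All pairs with untreated were above 0.1, but for Ang1 with VEGF only number 1 was, at 0.235 (array A) and 0.232 (array B). No label ties the numbers to animals, so they were not treated as pairing in the main fit. Still, 8 of 9 RNAs on each array had their highest mean correlation with the RNAs of their own number in the other groups. If the numbers do mark animals, the main fit leaves that pairing out. Of 939 alternative values of the 17 clock gene probe sets in 3 comparisons, 25 moved by more than 1 SD, and 21 of 51 differences kept their sign throughout. The filter at the 60th percentile removed Per1, Arntl, Clock 1389456_at, Nr1d1 and Dbp. With 3 RNAs per group, dim probe sets such as the third Nr1d2 are limited by signal over background.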
